A study of Homo sapiens with 31 samples.

Results

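The 5 CEACAM genes CEACAM1, CEACAM5, CEACAM6, CEACAM7 and CEACAM19 were followed through 31 RNA-seq libraries of colorectal cell lines and their RNA mixtures. They were listed by name, with earlier results of these data known. All 5 were among the 17113 protein-coding genes of the deposited count table. The study mixed RNA of 4 colorectal adenocarcinoma lines, LoVo, LS1034, HT-29 and HCT116, into RNA of CCD841CoN, a line labelled normal colon, to test how well a cancer share and a cancer profile can be recovered by computation. Each of the 5 lines was sequenced unmixed in 3 libraries, without treatment. Each cancer line was also sequenced in 1 mixture at each of 4 labelled shares of its RNA, 0.1, 1, 10 and 50%, with CCD841CoN RNA making up the rest. With CCD841CoN as the sole normal line, a difference of cell type and a difference of cancer status cannot be told apart. Whether a line's libraries stem from separate cultures is not in the labels, and p-values then measure the spread between these libraries only, which may be technical. In RNA of whole cultures, fewer expressing cells and less RNA per cell cannot be told apart either.

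CEACAM genes encode cell adhesion molecules of the immunoglobulin superfamily. CEACAM5 is the carcinoembryonic antigen, a serum marker in the follow-up of colorectal cancer, and CEACAM5, CEACAM6 and CEACAM7 are held on the cell surface by a glycosylphosphatidylinositol (GPI) anchor. CEACAM1 spans the membrane, and its long form carries inhibitory tyrosine motifs that recruit the phosphatases PTPN6 and PTPN11. In normal colon these 4 genes are expressed by the epithelium, mainly by mature cells near the surface, whereas CEACAM19 is a less studied transmembrane member.

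All 5 genes lie on chromosome 19, where CEACAM7, CEACAM5 and CEACAM6 follow each other with no annotated protein-coding gene between them. Start site windows of 300 bases, from 250 before to 50 after the annotated start, were at hand for CEACAM1, CEACAM5, CEACAM6 and CEACAM7 (RefSeq, GRCh38.p14), but not for CEACAM19. The windows of CEACAM5 and CEACAM6 are shown because the levels of these neighbouring genes had the highest correlation of the 10 pairs. CEACAM5 is at chr19:41708376-41708675 on the plus strand and CEACAM6 at chr19:41755280-41755579 on the plus strand. Capitals mark the hexamer CACGTG, the E-box bound by USF and MYC family factors.
CEACAM5: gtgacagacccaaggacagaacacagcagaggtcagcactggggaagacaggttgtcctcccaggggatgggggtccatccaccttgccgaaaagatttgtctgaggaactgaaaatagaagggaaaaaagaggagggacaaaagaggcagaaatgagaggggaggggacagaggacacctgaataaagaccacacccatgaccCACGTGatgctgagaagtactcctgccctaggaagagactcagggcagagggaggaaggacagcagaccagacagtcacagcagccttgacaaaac
CEACAM6: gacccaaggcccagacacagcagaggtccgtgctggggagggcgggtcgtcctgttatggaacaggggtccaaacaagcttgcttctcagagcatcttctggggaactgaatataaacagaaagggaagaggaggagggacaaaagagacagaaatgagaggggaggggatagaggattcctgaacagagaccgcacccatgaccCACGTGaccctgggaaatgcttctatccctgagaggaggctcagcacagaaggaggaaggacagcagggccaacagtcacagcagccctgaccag
The hexamer began at position -46 in CEACAM5 and -45 in CEACAM6, counting the base before the start site as -1. At the aligned place, the CEACAM1 window (chr19:42528432-42528731, minus strand) held CACATG from -41, and the CEACAM7 window (chr19:41688221-41688520, minus strand) held CATGTG from -44. Each differs from CACGTG at 1 base, and they are shown in capitals with 6 flanking bases on each side.
CEACAM1: ccagcaCACATGatcaga
CEACAM7: ctggacCATGTGatcttg
CACGTG, which reads the same on both strands, occurred in 7.26% of 35116 RefSeq windows of this length, and CANNTG, which includes it, in 68.7%. The windows of CEACAM5 and CEACAM7 shared 84.7% of aligned bases, CEACAM6 and CEACAM7 81.5%, CEACAM5 and CEACAM6 78.8%, and CEACAM1 shared 72.0 to 77.1% with the other 3. All 4 windows had few CpG dinucleotides: CEACAM7 held 1, CEACAM5 held 2, CEACAM1 held 3 and CEACAM6 held 5. Another 4 motifs were searched on both strands. GGGCGG (in 45% of all windows) was present in CEACAM1 and CEACAM6 and TATAAA (11.5%) in CEACAM6, and neither TTTATG (10.6%) nor TGANTCA (7.71%) was found in any of the 4. A match describes letters in the window, not a site in use.

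Libraries held 9688765 to 56741879 counts. Levels are given as counts scaled to 1000000 counts per library (CPM), with mean ± SD over the 3 libraries of a line, and log2 fold changes are given ± SE from edgeR's quasi-likelihood test with Benjamini-Hochberg adjustment over all genes tested. The labelled tissue was checked with marker genes. The summed level of 6 epithelial markers was 3179 to 24550 CPM in the cancer libraries and 239.6 to 314.9 CPM in CCD841CoN, while 8 fibroblast markers summed to 1.515 to 35.98 CPM in the cancer libraries and 26740 to 31970 CPM in CCD841CoN. Granulocyte markers, genes of blood cells that also carry CEACAM proteins, summed to at most 0.437 CPM in every unmixed library. Like the epithelial sums, CEACAM1, CEACAM5, CEACAM6 and CEACAM7 were higher in LoVo, LS1034 and HT-29 than in CCD841CoN. The part of cell type in these differences was not tested. Between these lines CEACAM5 did not follow the sums. HT-29 had sums of 14510 to 24550 CPM with a CEACAM5 mean of 18.1 CPM, and LoVo 7182 to 12410 CPM with 357 CPM. HCT116 had epithelial sums of 3179 to 6066 CPM, the lowest of the cancer lines.

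CEACAM1, CEACAM5, CEACAM6 and CEACAM7 were higher than in CCD841CoN in LoVo, LS1034 and HT-29, and CEACAM19 was not. In HCT116 none of the 5 passed the test (0 by edgeR, 0 by DESeq2 and 0 at an unadjusted p below 0.05). The 4 members called higher in LoVo stood beside 26.5% of all 14452 tested genes, the 4 in LS1034 beside 25.7%, the 4 in HT-29 beside 24.7%, and the 0 of 5 in HCT116 beside 25.4%. A gene was called at an adjusted p below 0.05 and a log2 fold change of at least 1 in size. The median log2 fold change of the 5 genes was 10.23 in LoVo, 7.48 in LS1034, 8.93 in HT-29 and 1.74 in HCT116, against 0.21 to 0.25 over all tested genes. In each line this median was the value of CEACAM7, which had no count in CCD841CoN, so its size is not a measured fold. In HCT116 it stood for 1 count against none (1.74 ± 3.08, adjusted p = 0.658, edgeR). All of these comparisons share the 3 CCD841CoN libraries. With HCT116 as the lower line, CEACAM1, CEACAM5, CEACAM6 and CEACAM7 were also higher in each of the other cancer lines (4 of 5 genes each, where 22.1% of all genes were called in either direction for LoVo, 32.9% for LS1034 and 30.6% for HT-29).

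**Figure D1:**
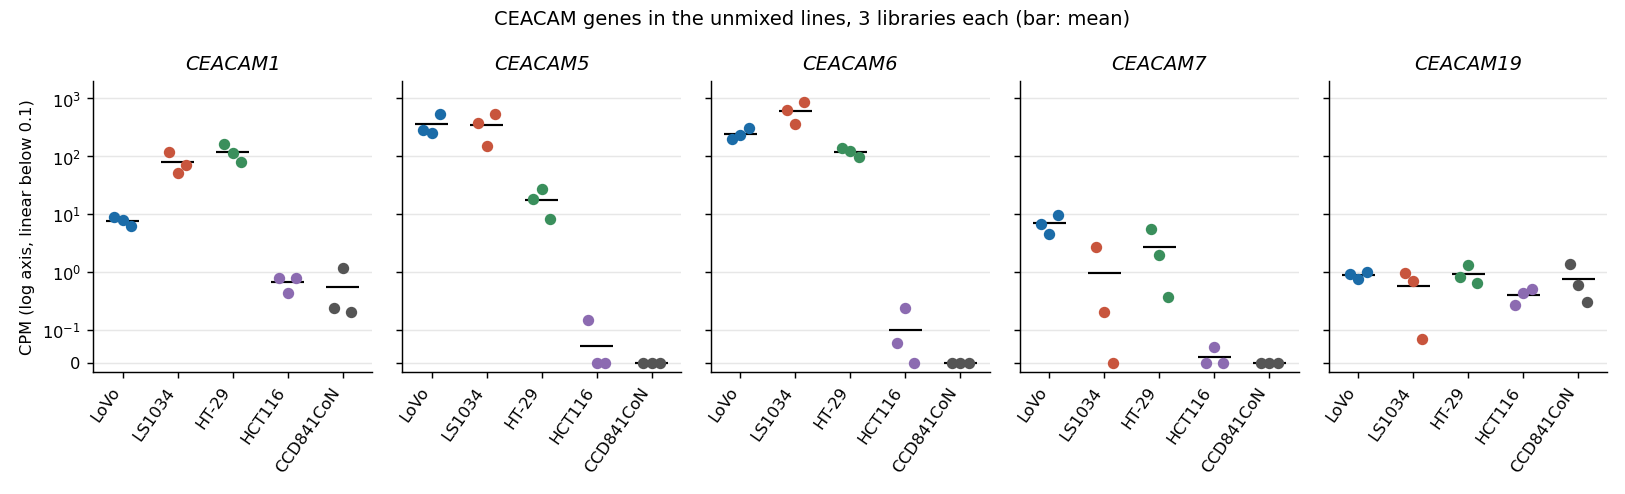
CPM of the 5 CEACAM genes in the unmixed lines, 1 point per library and a bar at the mean of 3 libraries. The vertical axis is logarithmic above 0.1 CPM and linear below it. CEACAM5 and CEACAM6 sit between 151 and 866 CPM in LoVo and LS1034 and at 0 in every CCD841CoN library, and CEACAM19 stays near 1 CPM or lower in all 5 lines.

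CEACAM5 stood at 285, 251 and 535 CPM in the LoVo libraries and at 375, 151 and 533 CPM in those of LS1034. HT-29 had 18.1, 27.9 and 8.24 CPM, HCT116 had 5 counts in its first library and none in the others, and CCD841CoN had no count in 3 libraries. LoVo and LS1034 overlapped with each other, every HT-29 library was below every one of theirs, and HCT116 was at the floor. Against CCD841CoN the level was at least 5472-fold higher in LoVo (adjusted p = 1.33e-07, edgeR), at least 5412-fold in LS1034 (1.13e-07) and at least 277-fold in HT-29 (4.94e-06). These bounds set CCD841CoN at 3 counts over its 3 libraries, and they cover counting error only. Between cancer lines, LoVo and LS1034 were not separated (log2 difference -0.05 ± 0.53, adjusted p = 0.961, edgeR), and HT-29 was 19.7-fold lower than LoVo (log2 difference 4.25 ± 0.61, adjusted p = 0.00014) and 19.5-fold lower than LS1034 (4.30 ± 0.61, adjusted p = 0.000136).

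CEACAM6, a GPI-anchored relative found on epithelium and on granulocytes, had its highest level in LS1034. The LS1034 libraries held 626, 364 and 866 CPM, the LoVo libraries 199, 236 and 309 CPM, and the HT-29 libraries 142, 126 and 97.0 CPM. No library of these 3 lines overlapped with another line. HCT116 held 2, 5 and 0 counts and CCD841CoN none. LS1034 was 2.50-fold above LoVo (log2 difference of LoVo from LS1034 -1.39 ± 0.40, adjusted p = 0.016, edgeR), where 26% of all genes were called in either direction and CEACAM6 and CEACAM1 were the 2 members called. That CEACAM6 call was lost without LoVo replicate 1 (adjusted p = 0.0535) and without LS1034 replicate 3 (0.0764). LS1034 was 5.09-fold above HT-29 (2.34 ± 0.41, adjusted p = 0.000725), and LoVo, 2.04-fold above HT-29, did not pass the test (0.95 ± 0.39, adjusted p = 0.083). CEACAM6 was at least 9490-fold higher in LS1034 than in CCD841CoN (adjusted p = 4.58e-09), at least 3799-fold in LoVo (1.08e-08) and at least 1866-fold in HT-29 (1.76e-08). Its 7 counts in HCT116 did not pass (adjusted p = 0.0981), but passed without HCT116 replicate 3, the library with no count (log2 fold change 4.58, adjusted p = 0.0457).

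CEACAM1 followed another order, with HT-29 and LS1034 above LoVo. HT-29 held 162, 116 and 80.2 CPM, LS1034 held 120, 52.2 and 71.4 CPM, and LoVo held 9.19, 8.05 and 6.22 CPM. HT-29 and LS1034 overlapped, and every LoVo library was below theirs. HCT116 had 0.787, 0.437 and 0.786 CPM and CCD841CoN 0.243, 1.2 and 0.206 CPM, with overlap between the lines. The transcript was thus present at a low level in CCD841CoN, in which CEACAM5, CEACAM6 and CEACAM7 had no count. HT-29 and LS1034 were not separated (log2 difference of LS1034 from HT-29 -0.58 ± 0.43, adjusted p = 0.366, edgeR). LoVo was 10.4-fold lower than LS1034 (-3.42 ± 0.48, adjusted p = 5.29e-05) and 15.3-fold lower than HT-29 (-4.002 ± 0.49, adjusted p = 1.81e-05), and 11.7-fold higher than HCT116 (3.49 ± 0.51, adjusted p = 9.93e-05). In LoVo against HT-29, where 27.2% of all genes were called, the members called were CEACAM1 (lower) and CEACAM5 (higher). In LS1034 against HT-29, with 22.6% called, they were CEACAM5 and CEACAM6. Against CCD841CoN CEACAM1 was 217-fold higher in HT-29 (7.58 ± 0.61, adjusted p = 4.99e-08), 147.5-fold in LS1034 (7.002 ± 0.60, adjusted p = 9.04e-08) and 14.2-fold in LoVo (3.58 ± 0.56, adjusted p = 5.4e-05). The reference behind these folds is 22 counts in CCD841CoN, 14 of them in replicate 2. Without that library the log2 fold changes were 8.73 in HT-29, 8.15 in LS1034 and 4.73 in LoVo, and all 3 stayed called.

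CEACAM7, a GPI-anchored member largely restricted to colon and rectum in the normal body, was low in the 3 lines that expressed it and varied widely between libraries of LS1034 and HT-29. LoVo held 6.92, 4.55 and 9.65 CPM, HT-29 held 5.71, 2.005 and 0.370 CPM, and LS1034 held 2.74, 0.208 and 0 CPM. In LS1034, 94 of the 99 counts came from 1 library, so the level in this line rests on that library. HCT116 had 1 count in all and CCD841CoN none. Against CCD841CoN the level was at least 108-fold higher in LoVo (adjusted p = 0.00138, edgeR), at least 41.3-fold in HT-29 (0.00445) and at least 15.1-fold in LS1034 (0.0168). The fitted log2 fold change of HT-29 was 8.93, and 7.68 without HT-29 replicate 1 (adjusted p = 0.0168). With only the 2 compared lines in the fit, CEACAM7 did not pass the filter on low counts for HT-29 or LS1034 and so had no test there. The LS1034 call was lost without LS1034 replicate 1 (adjusted p = 0.15) and without CCD841CoN replicate 1 (0.0608). The LS1034 call against HCT116 (adjusted p = 0.016) was lost without LS1034 replicate 1 (0.238), HCT116 replicate 1 (0.0641) or HCT116 replicate 3 (0.0506). Between LoVo and LS1034 the log2 difference of 2.75 ± 1.17 did not pass (adjusted p = 0.0939), but did with the library number as a block (3.99, adjusted p = 0.017) and with the cancer lines alone and that block (3.96, adjusted p = 0.0135). It also passed without LS1034 replicate 1 (5.75, adjusted p = 0.00835), and without that library HT-29 was above LS1034 as well (log2 difference of LS1034 from HT-29 -4.41, adjusted p = 0.0317, against -1.45 and 0.396 with it).

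CEACAM19 was low in every line and passed in none of the 10 comparisons between lines by edgeR or DESeq2, nor at an unadjusted edgeR p below 0.05. Its mean was 0.912 ± 0.138 CPM in LoVo, 0.592 ± 0.470 in LS1034, 0.949 ± 0.371 in HT-29, 0.406 ± 0.121 in HCT116 and 0.763 ± 0.553 in CCD841CoN (n = 3 libraries each). The 5 lines overlapped except that HCT116 lay below every LoVo and HT-29 library. The log2 difference of HT-29 from HCT116 was 1.29 ± 0.81 (adjusted p = 0.237, edgeR), and that of HCT116 from CCD841CoN -1.28 ± 0.82 (adjusted p = 0.199).

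Levels of different genes were set side by side per kilobase of exon. In LoVo CEACAM5 stood at 123 ± 53.3 CPM per kilobase, CEACAM6 at 91.8 ± 20.9, CEACAM7 at 2.83 ± 1.02 and CEACAM1 at 2.11 ± 0.405. In LS1034 CEACAM6 led with 229 ± 93.0 CPM per kilobase, ahead of CEACAM5 at 121 ± 66.0 and CEACAM1 at 21.9 ± 9.39. In HT-29 CEACAM6 (45.1 ± 8.45) and CEACAM1 (32.2 ± 11.1) were above CEACAM5 (6.22 ± 3.38). CEACAM6 thus had the highest mean per kilobase in LS1034 and HT-29, while in LoVo CEACAM5 and CEACAM6 overlapped. The balance of CEACAM6 to CEACAM5 was then read within each library as the ratio of their counts, which library depth cannot change. It was 0.697, 0.939 and 0.578 in LoVo, 1.67, 2.42 and 1.63 in LS1034, and 7.83, 4.52 and 11.8 in HT-29. The 3 lines did not overlap. The mean log2 ratio was -0.47 ± 0.35, 0.90 ± 0.32 and 2.90 ± 0.69 (SD, n = 3). These ratios are a description with no test, and HCT116 was left out for its few counts. The genes resemble each other in sequence: 3.07% of the 50-base words in CEACAM5 transcripts and 4.03% of those in CEACAM6 transcripts also occur in another family gene, and at 100 bases none do. CEACAM1 shares 2.75% at 50 bases, and CEACAM7 and CEACAM19 share none.

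**Figure D2:**
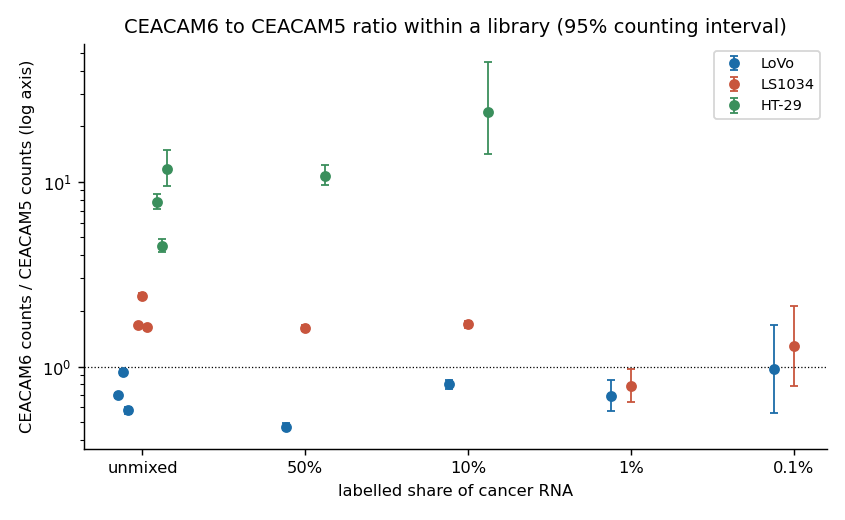
Ratio of CEACAM6 to CEACAM5 counts within a library (logarithmic axis), by labelled share of cancer RNA, with 95% counting intervals. Unmixed LoVo, LS1034 and HT-29 libraries form separate ranges, and the HT-29 mixtures at 10 and 50% lie at 24.0 and 10.8. Libraries with fewer than 10 counts of either gene have no point, among them all HCT116 libraries and the HT-29 mixtures at 0.1 and 1%.

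Over the 15 unmixed libraries, log2(CPM + 1) of CEACAM5 and CEACAM6 had a Pearson coefficient of 0.953 and a Spearman coefficient of 0.932. CEACAM1 and CEACAM6 had 0.85 and 0.69, and CEACAM1 and CEACAM7 0.404 and 0.577. The libraries come from 5 lines, so these coefficients mostly describe differences between lines. The genes most like CEACAM5 among those reaching 10 CPM in a line were IL33, an epithelial alarmin (0.983), SLPI, a secreted protease inhibitor (0.982), and the phospholipid flippase ATP10B (0.976). IL33 had the same split, at 234 CPM in LoVo and 288 in LS1034 against 7.22 in HT-29, 0.146 in HCT116 and 0.0812 in CCD841CoN. CEACAM6 was most like the ferroxidase HEPH (0.994), the receptor GPR35 (0.992) and the membrane protease TMPRSS2 (0.991). CEACAM1 was most like SBSPON (0.981), the integrin chain ITGB6 (0.981) and the membrane protease TMPRSS4 (0.977), with SBSPON at 104 CPM in HT-29, 53.5 in LS1034 and 3.21 in LoVo. For CEACAM7 the 3 most alike were PARP12 (0.898), CELF2 (0.894) and R3HDM2 (0.893), and for CEACAM19 IGF1R (0.721), RASGEF1B (0.71) and TSHZ1 (0.709). The coefficients of the last 2 members are lower, and their counts are few.

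Of 17 other genes of the carcinoembryonic antigen family, 16 were in the table and 6 were tested. Of these, 5 were pregnancy-specific glycoproteins (PSG), secreted members best known from the placenta, and all 5 were called lower in each cancer line than in CCD841CoN. At their low levels in the cancer lines, these 5 passed the filter on low counts only through CCD841CoN. Their shared direction was thus largely set by the filter, and nothing is read from it about the family. Of all tested genes 21.6% were called lower in LoVo, 21.4% in LS1034, 20.9% in HT-29 and 21.2% in HCT116. PSG5 stood at 655 ± 173 CPM in CCD841CoN against 0.0671 ± 0.116 in LoVo, 0.226 ± 0.120 in LS1034, 0.168 ± 0.257 in HT-29 and 0.166 ± 0.180 in HCT116 (n = 3 each), with log2 fold changes from -11.89 to -13.45 and adjusted p from 1.79e-08 to 2.59e-08 (edgeR). PSG1 had 10.3 CPM in CCD841CoN, PSG9 4.29, PSG2 2.52 and PSG4 2.02, each at 0.240 CPM or less in the cancer lines. The PSG genes are close copies of each other, so how their reads were divided is uncertain. CCD841CoN thus carried PSG transcripts of the family while its CEACAM5, CEACAM6 and CEACAM7 counts were 0. The sixth gene, CEACAM18, was higher than in CCD841CoN in LS1034 (3.90 ± 2.73 CPM, at least 59.7-fold, adjusted p = 0.000504) and HT-29 (2.31 ± 1.69 CPM, at least 35.4-fold, adjusted p = 0.0011), with 2 counts in LoVo, 1 in HCT116 and none in CCD841CoN. CEACAM3 and CEACAM8, members of granulocytes, were at 0.266 CPM or less in every line.

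**Figure D3:**
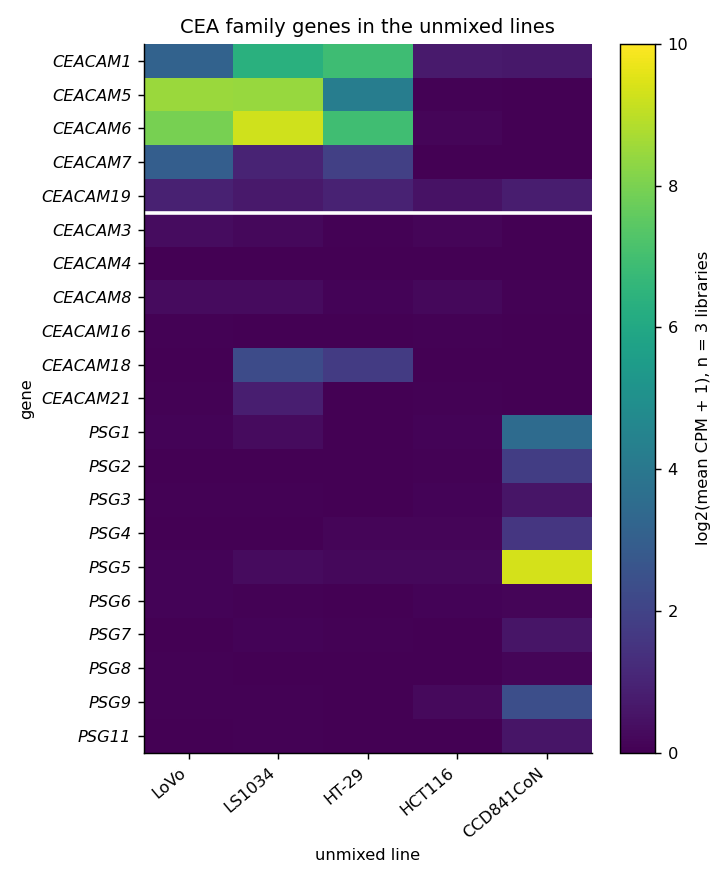
Heat map of log2(mean CPM + 1) over 3 libraries for the 5 CEACAM genes (above the white line) and the 16 other family genes in the table (below it), in the 5 unmixed lines. CEACAM5 and CEACAM6 are bright in LoVo and LS1034, and PSG5 in CCD841CoN.

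Genes of mature colonocytes were read beside the CEACAM genes, since both mark differentiated epithelium. Of 16 listed genes 12 were tested, and against CCD841CoN 8 were higher in LoVo, 8 in LS1034 (1 lower), 9 in HT-29 (1 lower) and 4 in HCT116 (1 lower). Of all tested genes 24.7 to 26.5% were called higher in these comparisons and 20.9 to 21.6% lower. KRT20, a keratin of surface colonocytes, was at 489 ± 61.4 CPM in LS1034 and 509 ± 76.1 in HT-29 but 5.46 ± 3.58 in LoVo and 0.989 ± 0.420 in HCT116. CDH17, the intestinal cadherin, was at 801 ± 234 CPM in LoVo and 1646 ± 621 in LS1034 but 4.15 ± 0.824 in HT-29 and 0.182 ± 0.265 in HCT116. LGALS4, an intestinal galectin, was at 84.2 CPM in LoVo, 766 in LS1034 and 1040 in HT-29, and PHGR1 was at 6.63, 972 and 26.1 CPM, with 0.184 and 0.0162 CPM in HCT116. Over LoVo, LS1034 and HT-29, CEACAM1 thus had LoVo lowest, as KRT20 and LGALS4 did. CEACAM5 had LoVo and LS1034 above HT-29, as CDH17 did, but the list as a whole did not. Of the 12 tested genes, 2 were higher and 6 lower in LoVo than in HT-29, beside 13.7 and 13.4% of all genes. In LS1034 against HT-29, 6 were higher and 4 lower, beside 11.4 and 11.2%. TSPAN1 also had LoVo lowest, at 28.9 CPM against 253.5 in LS1034 and 685 in HT-29. Not every listed gene had one of these orders. CA2, a colonocyte carbonic anhydrase, was highest in HCT116 at 91.2 CPM and stood at 29.7 CPM in LoVo, 0.191 in LS1034 and 48.95 in HT-29. The sulfate transporter SLC26A2 had LoVo (57.95 CPM) and LS1034 (27.05) above HT-29 (7.44), but stood at 32.2 CPM in HCT116. TSPAN1, CA2 and SLC26A2 were named after their values had been seen. All comparisons with CCD841CoN share its 3 libraries.

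Of 14 genes for partners and regulators of CEACAM1, all were tested, and 4 were higher and 3 lower in LoVo than in CCD841CoN, 6 and 3 in LS1034, 5 and 4 in HT-29, and 6 and 3 in HCT116. These counts, of 14, stand beside the 24.7 to 26.5% of all genes called higher and the 20.9 to 21.6% called lower, and nothing is read from them about the list. PTPN6, like PTPN11 a phosphatase recruited by the inhibitory motifs of CEACAM1, was named after its values had been seen. It stood at 14.3 ± 6.32 CPM in LoVo, 35.6 ± 6.48 in LS1034, 21.3 ± 3.21 in HT-29 and 32.1 ± 13.3 in HCT116 against 3 counts in CCD841CoN (adjusted p from 1.77e-07 to 1.2e-06, edgeR). HCT116 held these PTPN6 transcripts with CEACAM1 at 0.670 ± 0.202 CPM. PTPN11, also named after its values had been seen, had a smaller contrast. It stood at 307 CPM in LoVo, 234 in LS1034, 181 in HT-29 and 393.5 in HCT116 against 144 in CCD841CoN. HNRNPA1, a splicing factor reported to act on the CEACAM1 tail exon, was higher in all 4 cancer lines (430 to 1168 CPM against 138 ± 26.6), whereas ANXA2, at 1705 to 3522 CPM against 2673 ± 198, was called in none. FLNA, also among the highest of the list, had lower means in the cancer lines (358 to 934 CPM against 1250 ± 74.4). S100A10 had means on both sides, at 351 to 2100 CPM against 405 ± 98.4.

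In the mixtures CEACAM5 and CEACAM6 were read down to the lowest share of cancer RNA. At 0.1% LoVo, 30 counts of CEACAM5 and 29 of CEACAM6 were present, and at 0.1% LS1034, 31 and 40, against none in the 3 CCD841CoN libraries, where 3 counts over the group would be 0.0652 CPM. At 0.1% HT-29, CEACAM6 had 15 counts and CEACAM5 none, which allows up to 0.138 CPM at 3 counts. CEACAM5 in the LoVo mixtures stood at 0.680, 5.49, 43.3 and 264 CPM from 0.1 to 50%, and in the LS1034 mixtures at 1.498, 11.3, 74.5 and 307 CPM. In the HT-29 mixtures it was 0, 0, 0.729 and 5.32 CPM. CEACAM6 stood at 0.657, 3.82, 34.65 and 125 CPM in the LoVo mixtures, at 1.93, 8.885, 126 and 496 CPM in the LS1034 mixtures, and at 0.688, 3.45, 17.5 and 57.6 CPM in the HT-29 mixtures. In each of these 3 series the level was higher at every further step that had counts. None of the 4 HCT116 mixtures had a count of CEACAM5, CEACAM6 or CEACAM7. The calculated number was at most 0.73 counts, so these genes were not detectable there at this depth.

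CEACAM1 did not separate the lowest mixtures from CCD841CoN, which carries some of its transcript. It had 0, 0, 1.96 and 4.77 CPM in the LoVo mixtures, 0.387, 0.36, 8.01 and 39.96 in LS1034, 0, 0.219, 12.45 and 41.0 in HT-29, and 0.535, 0, 0.389 and 1.04 in HCT116. The mixtures of LoVo, LS1034 and HT-29 at 10 and 50% were above every CCD841CoN library (0.206 to 1.2 CPM). CEACAM7 was seen from 1% up in the LoVo mixtures (0.351, 1.38 and 4.58 CPM) and at 50% in LS1034 (0.310 CPM) and HT-29 (0.932 CPM). CEACAM19, with like levels in all lines, ranged from 0.0521 CPM (HT-29, 10%) to 1.815 CPM (LoVo, 10%) with no order by share common to all series. In the LS1034 mixtures it was lower at each further step, at 1.401, 0.873, 0.637 and 0.558 CPM on 29, 17, 34 and 9 counts.

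**Figure D4:**
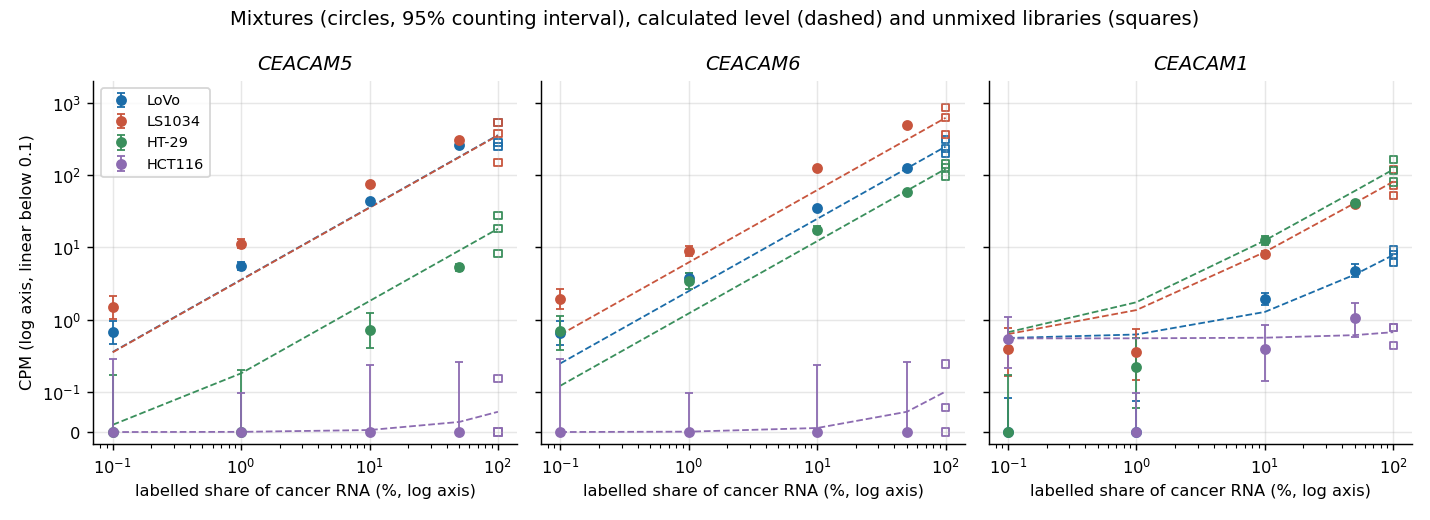
CPM of CEACAM5, CEACAM6 and CEACAM1 against the labelled share of cancer RNA (logarithmic axis) in the 16 mixtures (circles, 1 library each, 95% counting interval) and the unmixed libraries at 100% (open squares). The vertical axis is logarithmic above 0.1 CPM and linear below it, and dashed lines join the levels calculated from the unmixed means. CEACAM5 and CEACAM6 of LoVo and LS1034 are higher at each further step, and HCT116 stays at 0 for both.

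Mixtures at each share were tested against the 4 mixtures at 0.1%, with the cancer lines as the replicates and the same control libraries in all 3 comparisons. CEACAM7 did not pass the filter on low counts. At 50%, 3 of the 4 tested members were higher, where 30.5% of 13212 genes were called higher: CEACAM1 (log2 difference 6.67 ± 1.64, adjusted p = 0.00324, edgeR), CEACAM5 (7.77 ± 2.315, adjusted p = 0.0109) and CEACAM6 (7.49 ± 1.92, adjusted p = 0.00433). All 3 genes were higher at 50% in LoVo, LS1034 and HT-29. In HCT116 CEACAM1 was at 1.04 CPM (15 counts) at 50% against 0.535 CPM (7 counts) at 0.1%. The counting intervals, 0.581 to 1.713 and 0.215 to 1.103 CPM, overlapped. The levels calculated from the unmixed lines were 0.610 and 0.550 CPM, so almost no rise was calculated there. CEACAM5 and CEACAM6 were at 0 in HCT116 at 50%, so their groups overlapped. With no filter CEACAM7 was tested as well and passed at 50% (8.31, adjusted p = 0.04), as it did without the HCT116 mixtures (8.91, adjusted p = 0.0457) but not without the LS1034 mixtures (8.72, adjusted p = 0.063). With 1 line left out, 2 to 4 members were called at 50%. The CEACAM5 call was lost without the LoVo mixtures (adjusted p = 0.0781) or the LS1034 mixtures (0.0503). At 10% none of the members passed by edgeR or DESeq2 (3 had an unadjusted edgeR p below 0.05), beside 2.95% of all genes called higher. With the cancer line as a block 3 did: CEACAM5 (5.73, adjusted p = 1.17e-06), CEACAM6 (5.55, adjusted p = 1.31e-06) and CEACAM1 (4.67, adjusted p = 0.0185). At 1% none passed by edgeR or DESeq2 (0 at an unadjusted p below 0.05), beside 0.0454% of all genes (6 genes), and with the block CEACAM5 (2.93, adjusted p = 0.00145) and CEACAM6 (2.44, adjusted p = 0.00512) did.

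The level in each mixture was then set against the level calculated from the unmixed means at the labelled share. Only mixtures with at least 20 calculated counts were read, and each is 1 library, so the intervals cover counting error only. CEACAM5 was above the calculated level in 6 of 8 such mixtures and below it in 2, with a median ratio of 1.51 (range 0.403 to 3.2). The 6 were all LoVo and LS1034 mixtures and the 2 were HT-29 mixtures, at 0.403 (interval 0.221 to 0.677) for 10% and 0.588 (0.523 to 0.66) for 50%. CEACAM6 was above in 7 of 9, with a median of 1.44 (0.947 to 2.83). Of the line's markers with enough counts, 56.3% had a lower ratio at 10% HT-29 and 65.4% at 1% LS1034. That share was 79.2% at 1% LoVo and 79.7% at 10% LoVo. It was 90.7% at 10% LS1034, 90.4% at 50% LS1034 and 95.6% at 1% HT-29. With the cancer share estimated from the markers in place of the label, the CEACAM6 ratios at 1% LS1034 and 10% HT-29 were 0.998 and 0.937, no longer above. The CEACAM6 ratio at 1% HT-29 was then 1.56 in place of 2.83. For CEACAM5 the share of markers with a lower ratio was 79.2, 69.6 and 93.2% in LoVo at 1, 10 and 50%. It was 92.3 and 94.7% in LS1034 at 10 and 50%, and 3.67 and 13.9% in HT-29 at 10 and 50%. The largest CEACAM5 ratio was 3.2 (2.79 to 3.65) at 1% LS1034, and 99.4% of the 179 markers of LS1034 with enough counts had a lower ratio there. For all markers of that mixture the ratio ran from 0.563 (10th percentile) to 2.03 (90th percentile), so single genes varied more than counting error. The unmixed CEACAM5 levels of LS1034 vary too: without LS1034 replicate 3 in the reference this ratio was 4.29, and without replicate 2 it was 2.49. With the share estimated from the markers (1.44% where the label says 1%) it was 2.23.

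The ratio of CEACAM6 to CEACAM5 in that 1% LS1034 mixture was 0.786 (0.641 to 0.964), below the 1.63 to 2.42 of the unmixed LS1034 libraries, whereas the LS1034 mixtures at 10 and 50% had 1.69 and 1.62. In HT-29 the ratio was 10.8 (9.61 to 12.3) at 50%, within the unmixed range of 4.52 to 11.8, and 24.0 (14.1 to 44.4) at 10%, above it on 14 CEACAM5 counts. The LoVo mixtures had 0.695 at 1%, 0.8 at 10% and 0.473 at 50%, the last below the unmixed 0.578 to 0.939.

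CEACAM1 was below the calculated level in 6 of 11 mixtures, above it in 1 and within the counting interval in 4 (median ratio 0.683). The low ratios were mostly at the small shares. No count was found at 0.1 and 1% LoVo, where 24.6 and 30.2 counts were calculated, and at 1% HCT116, where 21.0 were. At those 3 points 24.2, 26.4 and 20.7 of the calculated counts came from the CCD841CoN reference, whose libraries held 6, 14 and 2 counts. That reference rests largely on replicate 2, at 1.2 CPM against 0.243 and 0.206 CPM in the others, so these 3 points depend on 1 library. At 1% HT-29 there were 4 counts against 31.8 calculated (ratio 0.126, 0.0343 to 0.322), of which 21.8 came from the HT-29 reference. At 1% LS1034 there were 7 against 26.4 (0.265, 0.107 to 0.546). At 10 and 50% the ratios were 0.931 and 0.979 for LS1034, 1.00 and 0.683 for HT-29, and 1.53 and 1.14 for LoVo. The share of the line's markers with a lower ratio was 21.2% at 50% HT-29 and 86.4% at 10% LoVo. It was 3.35% at 1% LS1034 and 0.552% at 1% HT-29. With the share estimated from the markers, the ratios at 10% were 0.702 for LS1034 and 0.663 for HT-29. CEACAM7 had 3 readable ratios, 1.95 and 1.30 in LoVo at 10 and 50% and 0.692 in HT-29 at 50%. The HT-29 ratio was 1.57 without HT-29 replicate 1 in the reference and 0.483 without replicate 3, so its side of 1 rests on single libraries. CEACAM19 had 6 ratios with a median of 1.08 (0.795 to 2.33). Its LoVo ratios of 2.05 at 1% and 2.33 at 10% were 3.42 and 3.63 without CCD841CoN replicate 1.

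**Figure D5:**
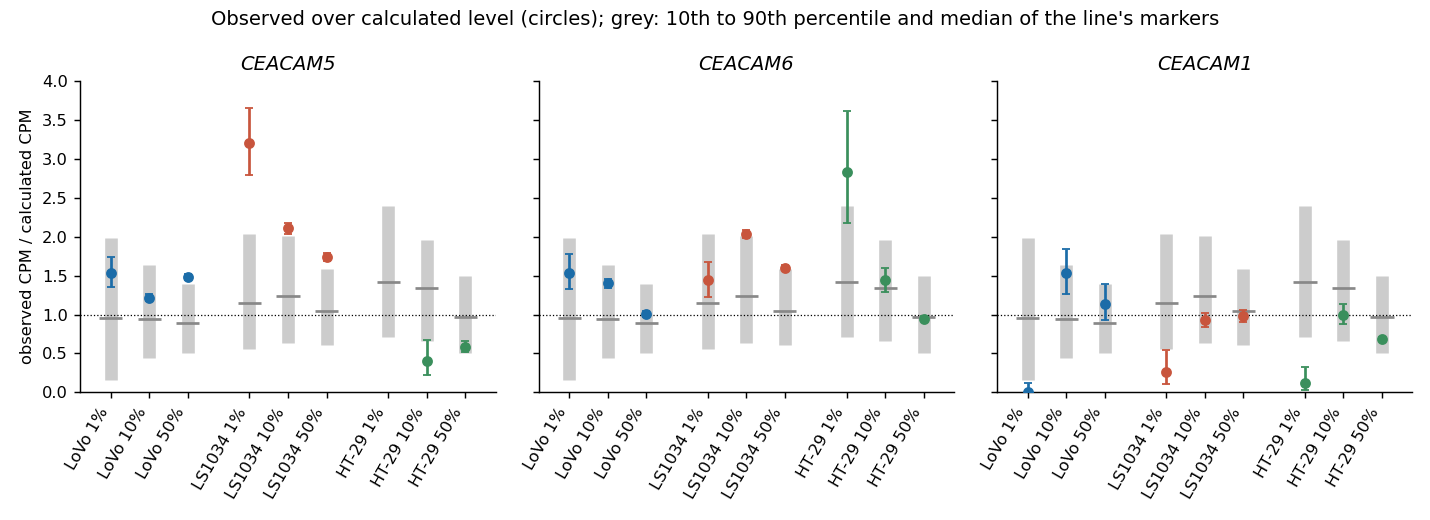
Observed over calculated CPM in the LoVo, LS1034 and HT-29 mixtures for CEACAM5, CEACAM6 and CEACAM1 (circles, 95% counting interval) where at least 20 counts were calculated. Grey bars run from the 10th to the 90th percentile of the same ratio over the markers of the line, with a line at the median. CEACAM5 lies at 3.2 in the 1% LS1034 mixture and at 0.403 in the 10% HT-29 mixture, and CEACAM1 near 0 at 1% LoVo and HT-29.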

How the data were processed

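The authors deposited raw read counts per protein-coding gene for 31 libraries. Per the labels' protocols, ribosomal RNA was depleted and the libraries keep strand. Per the submitters' processing notes STAR, featureCounts and the hg19 build were used. Their versions, read length, strand setting and the handling of reads that match several genes are not given in the sources used here, and the last could move reads between close family members.

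Tests used edgeR 4.0.16 in R 4.3.3 (quasi-likelihood fit on TMM-scaled counts, filterByExpr), with all 5 lines in 1 fit and all 16 mixtures in another, and DESeq2 1.42.0 as an alternative. Calls needed a Benjamini-Hochberg adjusted p below 0.05 and, in unmixed lines, a log2 fold change of at least 1. CPM is scaled to 1000000 counts over all 17113 genes. Intervals are exact Poisson intervals at 95%. They cover counting error only, since PCR copies were not marked. Exon lengths and transcripts came from GENCODE v29. Python 3.11.15, pandas 2.3.3 and scipy 1.17.1 were used for the rest. The tests were tried on simulated counts first.

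The members and lists were chosen with earlier results of these data known. Genes besides the members were named by rule: the 3 most alike by Pearson coefficient, 3 chromosomal neighbours on each side, up to 4 highest genes of each list, and family members. Mixtures were compared with the level calculated from the unmixed means at the labelled share. Markers for an estimated share had a log2 fold change of at least 5 over CCD841CoN and at least 5 CPM, CEACAM genes left out.

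The library numbers paired the cancer lines: residuals of equal number correlated at 0.108 to 0.762 in 18 pairs, against -0.687 to 0.128 for unequal numbers, but at -0.103 to 0.0174 in the 12 pairs with CCD841CoN. Mixtures of the same cancer line were paired by their labels (0.0892 to 0.815 in 24 pairs). Alternatives were other scalings, no filter, DESeq2, only the compared groups, the replicate block, another control, TMM-scaled CPM and each library left out.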

Additional observations from a re-analysis of the deposited data

Results flagged for a closer look

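The CEACAM7 level of the LoVo mixture stood apart from the other mixtures at 1%, with 0.351 CPM (17 counts) against no count in the LS1034, HT-29 and HCT116 mixtures. It also stood apart at 10%, with 1.38 CPM (78 counts) against no count in the other 3. Both were found by comparing the gap of the highest library to the next with the range of its group. With the other 3 libraries at 0, any count in LoVo meets that rule, so the usual chance rate of about 1 in 20 groups does not apply. The counts calculated for the others from the unmixed lines were few, 0.192 in LS1034, 0.493 in HT-29 and 0.00616 in HCT116 at 1%, and 5.26, 5.17 and 0.025 at 10%. The LoVo mixtures were also the deepest of their shares, with 48429004 counts at 1% and 56741879 at 10%. LoVo also had the highest mean CEACAM7 level of the unmixed lines, 7.04 ± 2.55 CPM.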

How the results depend on the processing

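The CEACAM1, CEACAM5 and CEACAM6 calls against CCD841CoN in LoVo, LS1034 and HT-29 held under every alternative run, and the replicate block changed no call of an unmixed comparison other than that of CEACAM7 between LoVo and LS1034. Depth limits CEACAM7 and CEACAM19, and 1 library per mixture limits the ratios. Causes of the changes below were not tested.

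In the mixtures, genes called at 1% numbered 6, and 58 with DESeq2, 124 with the replicate block by cancer line (2 of them CEACAM genes), 12 with unmixed CCD841CoN as control, and 116 in the 3 lines other than HCT116 with the block (2 CEACAM genes). Leaving out 1 line gave 0 to 17. At 10% they numbered 502, and 1217 with DESeq2, 976 with the block (3 CEACAM genes), 979 with CCD841CoN as control, and 3 CEACAM genes in the 3 lines with the block. Leaving out 1 line gave 185 to 352 genes and 0 to 1 CEACAM genes (CEACAM6 without HCT116, adjusted p = 0.0153). CEACAM genes called numbered 1 to 3 between LoVo and LS1034 and 0 to 1 between HCT116 and CCD841CoN with 1 library left out.

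Signs turned only in log2 differences that were not called. For CEACAM19, HT-29 against CCD841CoN was -0.11 with DESeq2 size factors, -0.12 with DESeq2 and -0.11 with only the compared groups, and LoVo against CCD841CoN was 0.20 by library size and 0.031 with the block. CEACAM1 in HCT116 against CCD841CoN was -0.085, -0.105 and -0.048 under the first 3 of these settings, CEACAM7 there was -0.32 with DESeq2, and CEACAM5 between LoVo and LS1034 was 0.016 by library size. In mixtures against 0.1%, CEACAM19 at 1% was 0.015 with CCD841CoN as control, and in the 3 lines with the block CEACAM1 at 1% was 0.56 and CEACAM19 at 50% was 0.43. With 1 library left out, CEACAM5 between LoVo and LS1034 ran from -0.49 to 0.39 and CEACAM1 in HCT116 against CCD841CoN from -0.39 to 1.23. For CEACAM19 the ranges were -0.41 to 0.80 (HT-29 against CCD841CoN), -0.47 to 0.67 (LoVo), -1.28 to 0.11 (LS1034) and -0.30 to 0.22 (LoVo against HT-29). With 1 line of mixtures left out, CEACAM1 at 1% ran from -1.57 to 0.57, and CEACAM19 from -0.98 to 0.11 at 1% and -1.40 to 0.04 at 10%.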

Other observations

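The genes that attach GPI anchors, which CEACAM5, CEACAM6 and CEACAM7 need to reach the surface, were read in the same way. Of 30 listed genes 28 were tested against CCD841CoN: 5 were called higher and 7 lower in LoVo (median log2 fold change 0.01), 5 and 3 in LS1034 (0.15), 5 and 1 in HT-29 (0.31), and 4 and 8 in HCT116 (-0.22), with 0.21 to 0.25 as the median of all genes. Of all tested genes 24.7 to 26.5% were called higher and 20.9 to 21.6% lower, and nothing is read from the counts about the list. PIGT, a subunit of the transamidase that adds the anchor, was lower in LoVo (103 ± 45.2 CPM) and HCT116 (116 ± 29.9) than in CCD841CoN (228 ± 15.8; adjusted p = 0.000712 and 0.00217, edgeR). PIGK, the catalytic subunit, was at 48.8 CPM in LoVo, 40.5 in LS1034 and 53.5 in HT-29 against 115 in CCD841CoN, all called lower, and at 90.4 CPM in HCT116, not called. DPM1, also among the highest of the list, had means in the other direction. It stood at 129 CPM in LoVo, 209.5 in LS1034, 172.5 in HT-29 and 179 in HCT116 against 75.6 in CCD841CoN. GPAA1 was at 76.4, 134.6, 194.8 and 118.6 CPM in the same order, against 207.5 in CCD841CoN.

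The nearest neighbours on chromosome 19 outside the 5 genes were also read. CEACAM3, CEACAM4 and CEACAM21, on either side of CEACAM7, CEACAM5 and CEACAM6, were at 0.811 CPM or less in every line. Of the 15 neighbours in the table that are not among the 5 genes, 7 were tested, and 3 were higher and 1 lower in LoVo than in CCD841CoN, 5 and 0 in LS1034, 4 and 1 in HT-29, and 5 and 2 in HCT116, beside the same shares over all genes. CBLC, an epithelial ubiquitin ligase close to CEACAM19, was at 21.4 ± 13.1 CPM in LoVo, 44.3 ± 9.32 in LS1034, 56.9 ± 8.83 in HT-29 and 22.1 ± 9.52 in HCT116 with no count in CCD841CoN (adjusted p from 6.73e-08 to 3.3e-07, edgeR).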
